A study of Mus musculus with 4 samples.

Results

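Immediate early genes outside the Fos and Jun family were followed through mammospheres grown from basal mammary cells of mice exposed to a plastics chemical, a carcinogen, both or neither. The members are 10 genes taken by symbol from the count tables, of 22609 genes listed: Egr1, Egr2, Egr3, Nr4a1, Ier2, Ier3, Btg2, Dusp1, Klf4 and Klf6. All 10 were among the 13638 genes kept for analysis, which had at least 20 counts in at least 1 library. Each of the 4 groups is 1 library made from the pooled spheres of 5 animals, so no group has a replicate.

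The BPA+DMBA group came from Balb/C mice gavaged with the weak estrogen mimic bisphenol A (BPA), used in making plastics, for 3 weeks from day 21 (25 µg/kg/day), and then given 7,12-dimethylbenz[a]anthracene (DMBA, a chemical carcinogen) once at 30 mg/kg at 2 months of age. The DMBA group received sesame oil in place of BPA and then the same carcinogen dose. The BPA group received BPA and no DMBA. The control group received sesame oil and no DMBA. All mice were kept on a diet low in phytoestrogens after puberty, and glands were taken at 4 months. Basal cells isolated by fluorescence-activated sorting were grown unattached for 7 days in medium holding epidermal growth factor and basic fibroblast growth factor at 20 ng/mL each, insulin at 10 µg/mL and hydrocortisone at 1 µg/mL. The medium also held B27 supplement at 2% in every group. RNA was therefore taken long after the exposures, from cells in a growth factor medium shared by every group.

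Immediate early genes are switched on within minutes of a growth factor, hormone or stress signal, without new protein synthesis. Kinase cascades such as ERK and p38 carry the signal to factors already bound at their promoters, among them serum response factor with its ternary complex partners and CREB. Their transcripts are mostly short-lived, and several of their proteins shut the signal down again. Freshly handled epithelial cells are known to express them, and epidermal growth factor is a classic inducer.

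Counts given to genes totalled 15672532 in BPA+DMBA, 26682738 in DMBA, 19672730 in BPA and 30627055 in control. Levels are given in CPM, the usual counts-per-million unit, after TMM scaling of library sizes (trimmed mean of M-values), and intervals at 95% cover counting error only. The sorted cells' label was checked against fixed markers. Basal markers were present in every library, with Krt14 at 812, 878, 316 and 299 CPM in BPA+DMBA, DMBA, BPA and control. All 12 luminal markers were detected too, with a summed level of 3800 to 4502 CPM, most of it from Krt18, Cldn4, Epcam and Krt8. All 9 fibroblast markers were detected at a sum of 5342 to 8900 CPM, most of it from the collagen genes Col1a1, Col1a2 and Col3a1. Both sums exceeded the 667 to 1854 CPM summed over 10 basal markers. Sums over different genes do not compare amounts of cells, and which cells of the spheres held the RNA described here was not measured. In such bulk RNA, fewer cells of a type and less RNA per cell cannot be told apart.

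The upstream sequences of 6 members are shown because they let a reader see what the genes that were lower in the BPA library have in front of them, beside genes that were not. They are the 250 bases before the RefSeq gene start in GRCm38.p6, 5′ to 3′ on the gene's strand, and were chosen after the values were seen. Capitals mark TGACG or its complement CGTCA, the core of the cAMP response element (CRE) that CREB and ATF proteins bind. This core is among several motifs searched, the others being given below. The display is no test of a link between the core and the level in BPA. The complete element TGACGTCA is its own complement and holds 2 overlapping cores. Dusp1, Nr4a1, Klf4 and Btg2 were lower in BPA than in control, while Klf6 and Ier3 were not. Egr2 was lower too, but has several alternative windows and is described after these.
Dusp1: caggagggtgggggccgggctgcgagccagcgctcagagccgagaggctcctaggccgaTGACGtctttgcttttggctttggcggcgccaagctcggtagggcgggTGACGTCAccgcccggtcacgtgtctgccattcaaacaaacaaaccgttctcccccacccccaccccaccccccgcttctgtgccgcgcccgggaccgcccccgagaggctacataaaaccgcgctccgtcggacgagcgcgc
Nr4a1: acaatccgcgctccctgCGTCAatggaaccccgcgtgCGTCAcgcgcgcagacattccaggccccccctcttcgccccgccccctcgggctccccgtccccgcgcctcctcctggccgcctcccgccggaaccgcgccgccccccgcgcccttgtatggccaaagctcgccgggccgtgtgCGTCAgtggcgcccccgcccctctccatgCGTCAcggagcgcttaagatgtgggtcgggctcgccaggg
Klf4: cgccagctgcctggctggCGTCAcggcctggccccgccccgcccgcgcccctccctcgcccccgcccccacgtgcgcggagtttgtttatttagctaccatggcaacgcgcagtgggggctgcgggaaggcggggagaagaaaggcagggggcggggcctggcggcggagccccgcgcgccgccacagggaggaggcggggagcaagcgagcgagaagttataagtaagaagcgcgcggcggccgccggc
Btg2: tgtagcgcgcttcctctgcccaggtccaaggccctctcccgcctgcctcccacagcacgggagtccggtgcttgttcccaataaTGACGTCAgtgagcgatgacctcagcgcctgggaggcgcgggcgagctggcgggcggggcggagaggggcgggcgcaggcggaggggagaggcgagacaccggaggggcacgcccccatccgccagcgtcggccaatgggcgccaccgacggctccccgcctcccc
Klf6: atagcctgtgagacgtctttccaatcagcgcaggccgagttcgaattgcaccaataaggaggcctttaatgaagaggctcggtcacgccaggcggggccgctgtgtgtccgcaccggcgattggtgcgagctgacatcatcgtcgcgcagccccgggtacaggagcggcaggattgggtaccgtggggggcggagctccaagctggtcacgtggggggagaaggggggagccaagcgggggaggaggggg
Ier3: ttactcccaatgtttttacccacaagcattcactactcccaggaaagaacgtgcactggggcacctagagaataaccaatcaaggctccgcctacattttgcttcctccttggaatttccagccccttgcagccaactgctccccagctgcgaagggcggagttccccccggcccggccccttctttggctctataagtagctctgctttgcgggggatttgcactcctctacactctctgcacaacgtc

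The windows are chr17:26508473-26508722 on the minus strand for Dusp1, chr15:101266596-101266845 on the plus strand for Nr4a1, chr4:55532476-55532725 on the minus strand for Klf4, chr1:134079156-134079405 on the minus strand for Btg2, chr13:5861239-5861488 on the plus strand for Klf6 and chr17:35821463-35821712 on the plus strand for Ier3. RefSeq windows were at hand for 7 of the 10 members, the other one being Egr2 with 5 alternative windows. Egr1, Egr3 and Ier2 had none, and of these Egr1 and Ier2 were lower in BPA than in control. Whether a core goes with a lower level in BPA was not tested. Both strands were searched. The complete CRE was found in Dusp1, 143 to 136 bases before the start, and in Btg2, 166 to 159 bases before it, against 1.55% of 32851 windows over all genes. The core occurred in 17.8% of all windows. It was matched 4 times in Nr4a1, the match nearest the start lying 40 to 36 bases before it. Dusp1 held 3 cores, of which 2 make up its complete element, Btg2 held the 2 cores of its own element, and Klf4 held 1, at 232 to 228 bases before the start. Klf6 and Ier3 had 0 matches. In Egr2, 3 overlapping windows held 2 cores each and the other two windows 0.

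Other motifs were searched in the same windows. GCGGGGGCG, a site bound by the EGR zinc fingers, was matched once each in Nr4a1 and Klf4, against 2.57% of all windows, and GCGTGGGCG in 0 member windows, against 0.536%. The CArG box bound by serum response factor was matched in 4 of the 5 Egr2 windows and in no window of the other 6 members, against 1.47% of all windows. The AP-1 site TGANTCA and the TATA motif TATAAA had 0 matches in the member windows, against 6.75% and 12.4% of all windows. The E-box CACGTG was matched in Dusp1, Klf4, Klf6 and 1 Egr2 window, against 6.02%, and the NF-kB motif in Ier3 and 1 Egr2 window, against 7.25%. Upstream GC content was 64.8% to 74.4% in the 5 members other than Egr2 and Ier3, 54.4% in Ier3 and 54.0% to 71.2% over the Egr2 windows, against a median of 52.4% over all windows. A match is a run of letters and not a measured site, and a gene without one in this window may have it elsewhere.

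**Figure D1:**
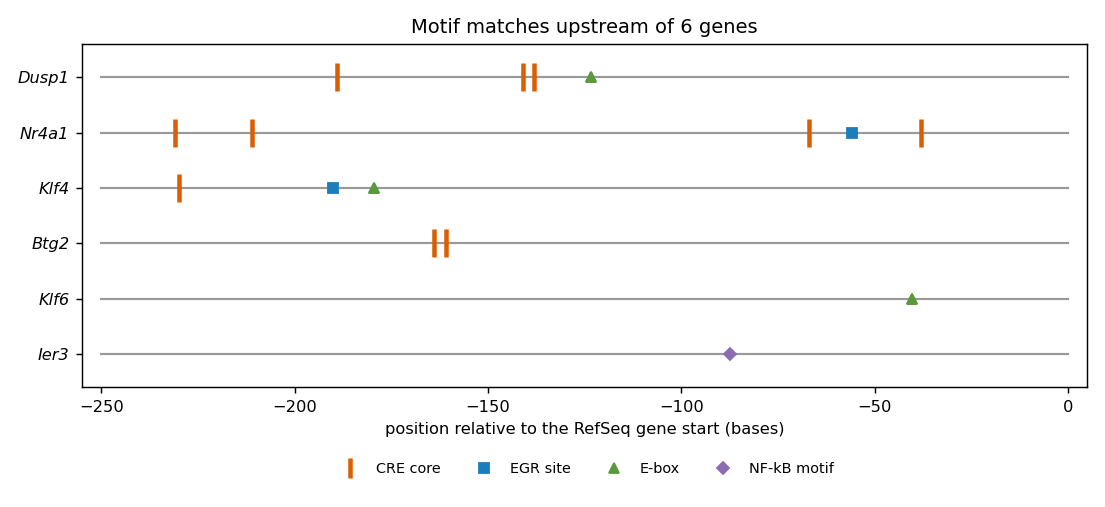
Motif matches in the 250 bases before the RefSeq gene start of 6 members; the horizontal axis is the position in bases relative to the start, orange bars are CRE cores, squares EGR sites, triangles E-boxes and diamonds NF-kB motifs. Orange bars appear in Dusp1, Nr4a1, Klf4 and Btg2, and neither Klf6 nor Ier3 has one. These 6 genes were chosen after the values were seen, and the CRE core is among several motifs searched.

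The members differed widely in level. Per kilobase of exon and averaged over the 4 libraries, the order was Ier3 at 147, Klf6 at 99.2, Ier2 at 60.3, Dusp1 at 56.7, Egr1 at 42.0, Btg2 at 35.9, Klf4 at 20.2, Egr2 at 17.1, Nr4a1 at 14.5 and Egr3 at 3.31 CPM per kilobase. Ier3 thus lay above 98.2% of kept genes with a known length and Egr3 above 28.2%. Several neighbours in that order crossed between libraries. Per kilobase, Dusp1 was above Ier2 only in control, Btg2 above Egr1 only in BPA, Egr2 above Klf4 only in BPA+DMBA, and Nr4a1 above Egr2 only in control. Members ran from 1131 bases of exon in Ier3 to 4484 in Egr1, with a median of 2886 against 3338 over kept genes. Together they took 0.132% of gene counts in BPA+DMBA, 0.143% in DMBA, 0.103% in BPA and 0.129% in control.

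The spread over libraries set the members apart into steady and variable genes. The highest library was 1.06 times the lowest for Klf6, 1.254 for Ier2 and 1.27 for Btg2, and 1.58 to 2.05 times for the other 7 members. The median of this ratio was 1.69 over members, against 1.27 over all kept genes. BPA was the lowest library for 7 of the 10 members, against 22.6% of kept genes, and the highest for 0. Control was lowest for the other three, Egr3, Ier3 and Klf6, against 26.2% of kept genes.

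**Figure D2:**
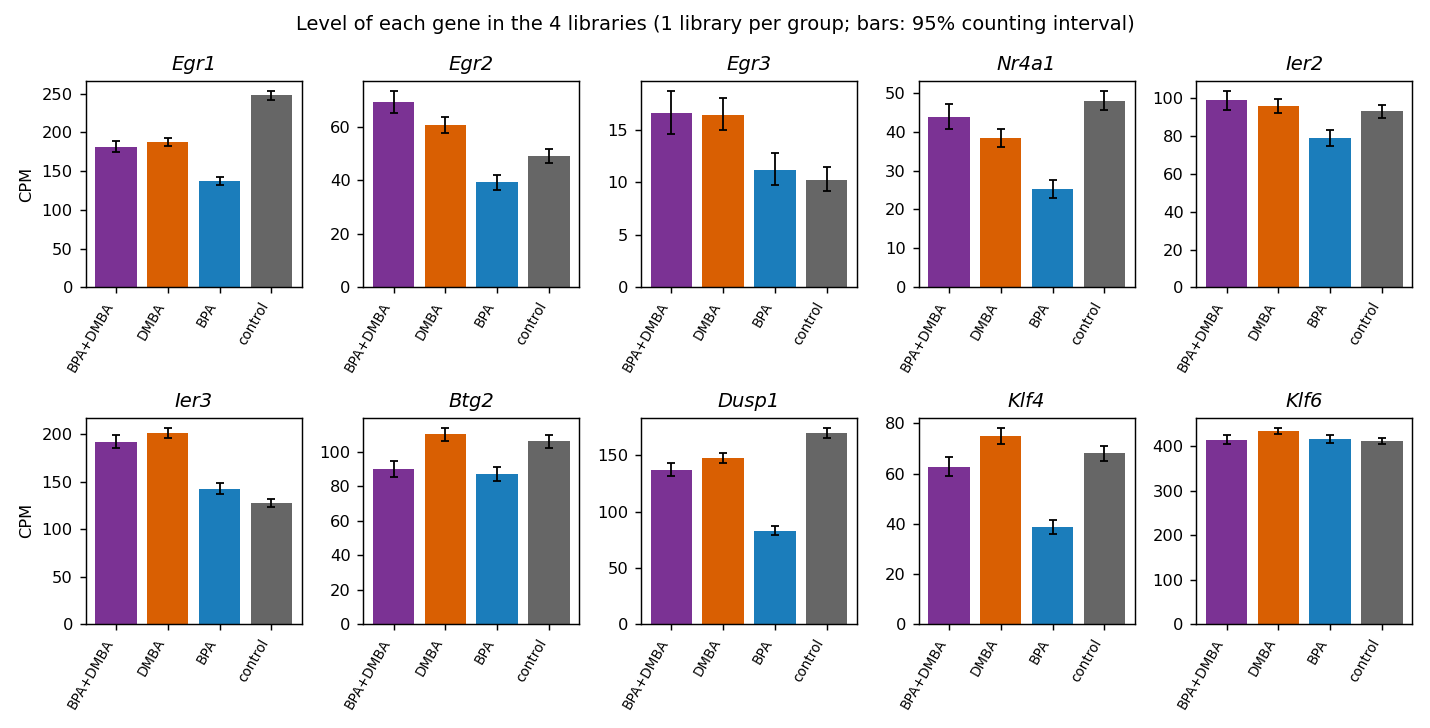
CPM of each of the 10 members in the BPA+DMBA, DMBA, BPA and control libraries, 1 bar per library with its exact Poisson 95% counting interval. The BPA bar is the lowest for 7 members, and Klf6 lies between 411 and 434 CPM in all 4.

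The EGR genes encode zinc finger transcription factors. Egr1, the most abundant of them, had 2883 counts in BPA+DMBA, 5221 in DMBA, 2618 in BPA and 7349 in control, or 182, 187, 137 and 248 CPM. Control was the highest library and BPA the lowest, with both DMBA-exposed libraries close together in between. Egr2, which in peripheral nerve drives myelination, had 69.3 CPM in BPA+DMBA, 60.7 in DMBA, 39.3 in BPA and 49.2 in control, so both DMBA-exposed libraries were above the other two. Egr3 was the lowest member, with 263, 457, 213 and 304 counts in the same order, or 16.6, 16.4, 11.1 and 10.2 CPM. Here too the DMBA-exposed libraries were above the other two, while BPA and control lay within counting error of each other. The balance within the family therefore differed between libraries: Egr1 was 1.86 times Egr2 per kilobase in BPA+DMBA, 2.19 times in DMBA, 2.47 times in BPA and 3.58 times in control.

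Nr4a1 encodes an orphan nuclear receptor. It had 43.8 CPM in BPA+DMBA, 38.3 in DMBA, 25.2 in BPA and 47.9 in control. Only BPA stood well below the rest. Ier2, a short single-exon gene for a nuclear protein, had 98.97, 95.9, 78.9 and 93.1 CPM in the same order, again with BPA lowest. Ier3, whose product limits cell death and is a target of NF-kB and p53, had 192 CPM in BPA+DMBA, 202 in DMBA, 143 in BPA and 128 in control. It was higher in both DMBA-exposed libraries than in either of the others.

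Btg2, an antiproliferative gene induced by p53, had 90.2 CPM in BPA+DMBA, 110 in DMBA, 87.0 in BPA and 106 in control. The libraries with BPA exposure were both below those without. Dusp1, a phosphatase that switches off p38, JNK and ERK, had 2177, 4121, 1587 and 5041 counts in BPA+DMBA, DMBA, BPA and control, or 137, 148, 82.9 and 170 CPM. Klf4, a zinc finger factor of epithelial differentiation, had 62.7, 75.1, 38.7 and 68.1 CPM in the same order. In both genes BPA was the lowest library by a wide margin. Klf6, a zinc finger factor that restrains growth, had 415, 434, 417 and 411 CPM, and it was 7.71 times Klf4 per kilobase in BPA but 4.74 times in BPA+DMBA, 4.14 times in DMBA and 4.33 times in control.

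BPA alone was set against control to ask what pubertal exposure left behind in these cells, the question in the study's title. Dusp1, Nr4a1, Egr1 and Klf4 were lower in BPA by 1.76-fold to 2.05-fold, while Egr3, Ier3 and Klf6 were not lower. On the log2 scale the ratio was -1.03 for Dusp1 (95% interval -1.12 to -0.95), -0.92 for Nr4a1 (-1.08 to -0.77), -0.86 for Egr1 (-0.92 to -0.79) and -0.81 for Klf4 (-0.94 to -0.69). Egr2 was at -0.32, Btg2 at -0.29 and Ier2 at -0.24, each with an interval below 0. Ier3 was higher at 0.16 (0.09 to 0.23), and the intervals of Egr3 (0.12, -0.14 to 0.38) and Klf6 (0.02, -0.02 to 0.06) spanned equality. The interval thus lay below 0 for 7 of 10 members, against 12.8% of kept genes, and above 0 for 1, against 16.4%. Intervals narrow with read counts, and the kept genes were not matched to the members for depth.

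With 1 library a group there is no test of this difference. Dusp1 was the 1 member at least 2-fold apart, against 0.829% of all kept genes (0.557% lower). At 1.5-fold, 4 of 10 members were lower, against 1.69% of kept genes. The median log2 ratio was -0.30 over members and 0.01 over all kept genes, whose middle 90% ran from -0.42 to 0.35. Only 1% of kept genes had a ratio below -0.86, a limit that Dusp1 and Nr4a1 passed. The summed level of fibroblast markers was 6452 CPM in BPA and 8667 CPM in control, with all 9 detected in both. Most of it came from Col1a1, Col1a2 and Col3a1, at 2619, 1932 and 1305 CPM in BPA and 3313, 2622 and 1975 in control. All 9 had a ratio below 0, from -0.68 for Thy1 to -0.05 for Dpt, with a median of -0.34. The part of these markers in the result was not tested. The 10 basal markers summed to 694.5 CPM in BPA and 667 CPM in control. Of 9 heat shock genes, known to respond to cell dissociation, 0 were 2-fold apart, with a median of 0.07.

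The effect of BPA in carcinogen-exposed mice was read from BPA+DMBA against DMBA. Of the members 0 of 10 were 2-fold apart, against 1.09% of kept genes, and 0 were 1.5-fold apart, against 4.11%. The interval lay below 0 for 5 members, against 15.1% of kept genes, and above 0 for 2, against 17.6%. These shares, too, are not matched for depth. Btg2 had a log2 ratio of -0.29 (-0.38 to -0.20), close to its value without DMBA, and Klf4 had -0.26 (-0.37 to -0.15). Dusp1 was at -0.11 (-0.18 to -0.03) and Egr1 at -0.05 (-0.11 to 0.02). Nr4a1 was higher in BPA+DMBA, at 0.19 (0.06 to 0.33), as was Egr2, at 0.19 (0.08 to 0.30). The median over members was -0.06, and -0.0008 over all kept genes. Fibroblast markers summed to 8900 CPM in BPA+DMBA and 5342 CPM in DMBA, again mostly collagen transcripts. All 9 had a ratio above 0, from 0.21 for Dpt to 0.86 for Col1a1.

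**Figure D3:**
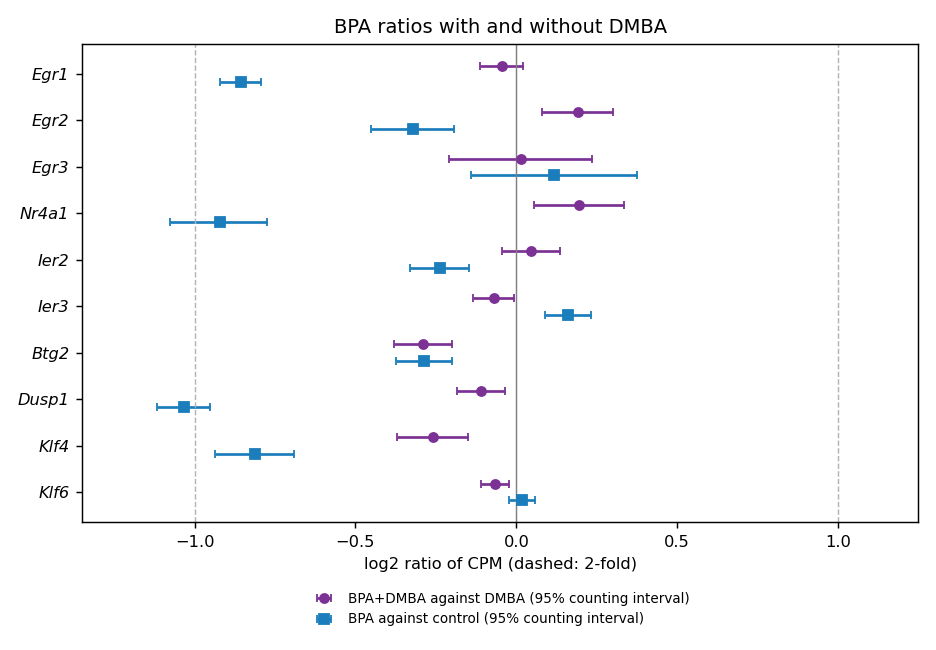
Log2 ratio of CPM of each member for BPA+DMBA against DMBA (circles) and BPA against control (squares), with 95% counting intervals and dashed lines at 2-fold. Egr1, Nr4a1, Dusp1 and Klf4 lie between -0.81 and -1.03 without DMBA and between -0.26 and 0.19 with it, and Btg2 has the same value in both.

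Departure from additivity is the BPA log2 ratio with DMBA minus that without. It was 1.12 for Nr4a1 (counting interval 0.91 to 1.32), the 1 member past 1, against 2.78% of kept genes (1.69% above 1). Dusp1 departed by 0.92 (0.81 to 1.04), Egr1 by 0.81 (0.72 to 0.90), Klf4 by 0.55 (0.39 to 0.72) and Egr2 by 0.51 (0.34 to 0.68). Ier2 departed by 0.28 (0.16 to 0.41), and Ier3 the other way by -0.23 (-0.33 to -0.13). The intervals of Btg2 (-0.002, -0.13 to 0.12) and Egr3 (-0.10, -0.44 to 0.23) spanned 0, and Klf6 was at -0.08. The median was 0.40 over members and -0.01 over all kept genes. These values use all 4 libraries once each and have no replicate error. Fibroblast markers departed above 0 in 9 of 9, with a median of 0.97 and 4 past 1, while the medians were -0.57 for squamous, -0.57 for basal and -0.34 for endothelial and pericyte markers; their part in the result was not tested.

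Over both backgrounds, the additive fit by edgeR's quasi-likelihood test called 0 of 10 members for BPA, and 0 of all 13638 genes (percent called 0). Unadjusted, 304 genes had a p under 0.05 (2.23%), and DESeq2 called 1 gene (0.00733%), which was no member. Among the members, 4 were under 0.05 unadjusted. In the edgeR fit Btg2 had a log2 change of -0.29 (SE 0.0680), Klf4 -0.53 (SE 0.133), Dusp1 -0.57 (SE 0.196) and Egr1 -0.45 (SE 0.176). All had an edgeR adjusted p of 0.999. In these 4 genes both BPA-exposed libraries were below both others, against 8.25% of kept genes. Btg2 had the smallest SE of the 10, and Nr4a1, with ratios of opposite sign, had -0.36 (SE 0.237). The fit has 1 residual degree of freedom, the interaction, so a gene whose BPA ratios differ between backgrounds gets a large error in it.

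In the Fos and Jun family with Atf3, 5 of 8 genes had a ratio below 0 in BPA against control, against 47.9% of kept genes. Of these 5, 3 lay further from 0 than any member. Fosb, a partner of Jun proteins in AP-1, was at -3.66 in BPA against control, Fos at -2.38 and the stress-induced factor Atf3 at -1.47, whereas Jun was at -0.40 and Junb at -0.14. In BPA+DMBA against DMBA the values were -0.17 for Fosb, -0.13 for Fos, -0.61 for Atf3, -0.10 for Jun and -0.04 for Junb. All 8 genes were below 0 in that pair, against 50.2% of kept genes. Of the 8 genes of that list 3 were at least 2-fold lower in BPA than in control, against 0.557% of kept genes, with a median of -0.27. The difference between the lists was not tested.

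Further immediate early genes were listed apart from the members. Of 30 listed 29 were kept, and 16 (55.2%) had a ratio below 0 in BPA against control, against 47.9% of kept genes. At least 2-fold lower was 1, against 0.557% of kept genes, and 0 were 2-fold higher, with a median of -0.04. That gene was Klf2, a relative of Klf4 and Klf6, at -1.20 with 94 counts in BPA and 339 in control. Zfp36, which speeds the decay of AU-rich transcripts, was at -0.79, and Sgk1, a kinase induced by glucocorticoids and serum, at -0.52. Dusp5, a nuclear ERK phosphatase, was at 0.42. In BPA+DMBA against DMBA Zfp36 was at 0.004, Sgk1 at 0.19, Klf2 at 0.56 and Dusp5 at 0.003.

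Genes that carry or damp the signal were listed too. Of 17 upstream factors and kinases 0 were 2-fold apart in BPA against control, with a median of 0.07 and a range of -0.07 to 0.19. Of 10 feedback and corepressor genes 0 were, with a median of 0.06 and a range of -0.03 to 0.42. Over kept genes the share was 0.829%, so a count of 0 in lists this short says little. Above 0 were 13 of the 17 and 8 of the 10, against 52.1% of kept genes. The largest ratio was that of Dusp10, a phosphatase of p38 and JNK, at 0.42. In BPA+DMBA against DMBA 0 of either list were 2-fold apart, against 1.09% of kept genes. Above 0 were 9 of the 17 and 7 of the 10, against 49.8% of kept genes. The median was 0.01 for the upstream list and 0.17 for the feedback list. The feedback list ran from -0.25 for Dusp10 to 0.59 for Spry4, an inhibitor of receptor tyrosine kinase signalling. Since the medium held hydrocortisone, genes induced by glucocorticoids were listed as well, of which Dusp1 is 1. All 8 had a ratio below 0 in BPA against control, against 47.9% of kept genes, with a median of -0.30. Dusp1 was the 1 past 2-fold. Sgk1, Per1 and Klf9 are shared with the list of other immediate early genes. Tsc22d3, a classic target of that receptor, was at -0.64. In BPA+DMBA against DMBA 7 of the 8 were above 0, against 49.8% of kept genes, with a median of 0.15. The highest was Fkbp5, a chaperone partner of the receptor, at 0.58. In DMBA against control 7 of the 8 were below 0, against 51.1% of kept genes, with a median of -0.61.

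**Figure D4:**
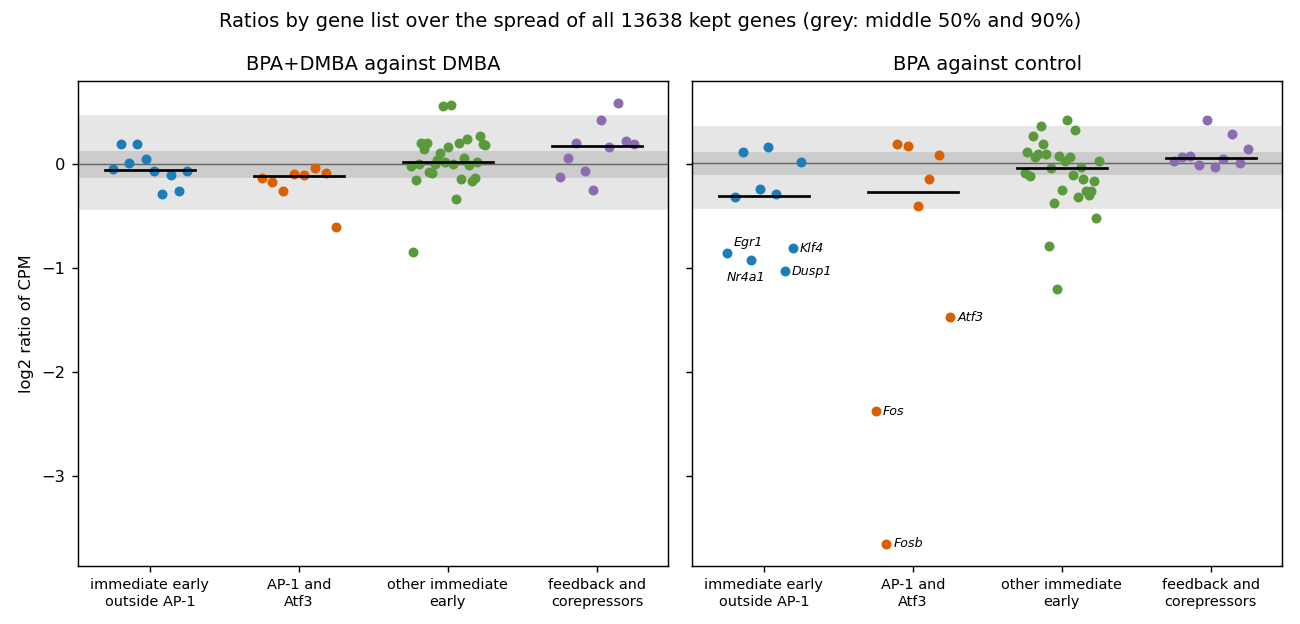
Log2 ratio of CPM of each gene in BPA+DMBA against DMBA (left) and BPA against control (right) for the 10 members, AP-1 with Atf3, other immediate early genes and feedback genes with corepressors. Black bars are list medians, and grey bands hold the middle 50% and 90% of all 13638 kept genes, with a line at their median; the labelled Fosb, Fos, Atf3, Dusp1, Nr4a1, Egr1 and Klf4 lie below the 90% band on the right, as do the unlabelled Klf2, Zfp36 and Sgk1.

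DMBA was the second exposure, and its effect was read across both BPA backgrounds. In the additive fit Egr3 rose by a log2 change of 0.63 (SE 0.127, edgeR adjusted p = 0.0264), Egr2 by 0.55 (SE 0.127, adjusted p = 0.0363) and Ier3 by 0.54 (SE 0.0832, adjusted p = 0.0124). These 3 of 10 members passed, all higher, against 14.4% of all genes tested (6.67% higher, 7.72% lower). DESeq2 called 1 member, Ier3 (adjusted p = 0.0178), against 5.15% of the genes it tested. The median was 0.23 over members and -0.003 over all kept genes. Klf4 had a value of 0.41 (SE 0.132, adjusted p = 0.0916), Dusp1 0.25, Nr4a1 0.21, Ier2 0.18, Btg2 0.05, Klf6 0.04 and Egr1 -0.004. None of the calls held under every alternative: Ier3 was lost when the trend of ratios with transcript length was removed (log2 0.38, edgeR adjusted p = 0.0663), Egr3 under DESeq2 (adjusted p = 0.188) and Egr2 under both (edgeR adjusted p = 0.0765, DESeq2 adjusted p = 0.0745). In a fit with DMBA as the single term, Egr3 was lost without the control library (0.57, edgeR adjusted p = 0.0768) and Egr2 without the BPA library (0.40, edgeR adjusted p = 0.0681). In that fit Egr1 was at 0.43 without control (edgeR adjusted p = 0.0348) and at -0.43 without BPA (edgeR adjusted p = 0.0263).

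The pairs behind the fit have no library in common, but BPA against control and DMBA against control share the control library. Across 13510 genes with a known length, the log2 ratio was lower for longer genes, with a Spearman correlation of -0.35 in BPA+DMBA against BPA and -0.30 in DMBA against control, and Ier3 is the shortest member. In BPA+DMBA against BPA 9 of 10 members were above 0, against 51.4% of kept genes, and in DMBA against control 7 of 10, against 48.9%. Ier3 had log2 ratios of 0.43 in BPA+DMBA against BPA and 0.66 in DMBA against control, Egr3 0.57 and 0.67, and Egr2 0.82 and 0.31. Both DMBA-exposed libraries were above both others for these 3 genes and Ier2, against 31.7% of kept genes, and below both others for 0 members, against 31.6%. No member was 2-fold apart in either pair, against 3.74% of kept genes in BPA+DMBA against BPA and 6.55% in DMBA against control.

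Of the other members Egr1, Nr4a1 and Dusp1 had opposite signs on the 2 backgrounds. Egr1 had a log2 ratio of 0.41 in BPA+DMBA against BPA (0.33 to 0.48) and had -0.40 in DMBA against control (-0.45 to -0.35). Nr4a1 had 0.79 (0.63 to 0.97) and -0.32 (-0.44 to -0.21), and Dusp1 had 0.72 (0.63 to 0.82) and -0.20 (-0.26 to -0.14). Klf4 was above 0 in both, at 0.69 and 0.14, Ier2 was at 0.33 and 0.04, and Btg2 was at 0.05 in both. At 1.5-fold, 4 members were higher in BPA+DMBA against BPA, Egr2, Nr4a1, Dusp1 and Klf4, against 6.79% of kept genes, and 2 in DMBA against control, Egr3 and Ier3, against 8.87%. The median over members was 0.50 in BPA+DMBA against BPA, where that over all kept genes was 0.01, and 0.07 in DMBA against control, where it was -0.01.

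Genes of the other lists passed the edgeR test for DMBA in both directions, in small numbers to be read against the 6.67% of all genes that rose and the 7.72% that fell. Of the AP-1 list 1 of 8 rose, Jun at 0.51 (SE 0.0918, edgeR adjusted p = 0.0194), and 0 fell. Of the 29 other immediate early genes 1 rose and 3 fell. Arc, known for its role at synapses, rose by 1.09 (SE 0.112, adjusted p = 0.00508), while Klf9 (-0.50), Tob1 (-0.43), a relative of Btg2, and the clock gene Per1 (-0.40) fell. Arc was also called by DESeq2 (adjusted p = 2.01e-06), while Klf9, Tob1 and Per1 were not (DESeq2 adjusted p = 0.0952, 0.121 and 0.166). Of the 10 feedback genes Dusp6, the ERK phosphatase, rose by 0.49 (SE 0.0715, adjusted p = 0.0111) and 0 fell. Among 17 upstream factors 2 fell, Mkl2, a coactivator of serum response factor, at -0.57 (SE 0.0748, adjusted p = 0.00940) and the kinase Rps6ka3 at -0.31, and 0 rose. DESeq2 called Mkl2 (adjusted p = 0.0129) and not Rps6ka3 (adjusted p = 0.452). Of the 8 glucocorticoid-induced genes 3 fell, Klf9 and Per1 again and Zbtb16 at -0.68, and 0 rose; DESeq2 called none of these 3 (adjusted p = 0.0507 for Zbtb16). Of 9 heat shock genes 1 rose, Hspb1 at 0.64 (edgeR adjusted p = 0.0249), and 0 fell.

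Markers of cell state moved with DMBA in the same libraries. In the edgeR fit 7 of 10 basal markers rose, with 5 of 7 kept squamous and 5 of 8 endothelial and pericyte markers. In these lists 0 fell, while 1 of 12 luminal markers rose and 3 fell. Over all genes 6.67% rose and 7.72% fell. The basal markers that did not pass were Mylk, Oxtr and Tagln. Of 9 fibroblast markers 2 rose, Dpt at 1.13 (edgeR adjusted p = 0.00508) and Dcn at 0.56 (edgeR adjusted p = 0.0219), and 0 fell. Over the 9, 4 were above 0 and 5 below, with a median of -0.009. Basal markers summed to 1617 CPM in BPA+DMBA and 1854 in DMBA, against 694.5 in BPA and 667 in control, with all 10 detected in every library. Most of each basal sum came from Krt5 and Krt14. The 8 squamous markers summed to 254, 325.8, 63.0 and 51.0 CPM in the same order, Krt1 being at 0 in BPA. Endothelial and pericyte markers summed to 373, 283, 292 and 303 CPM, of which Cspg4 alone made up 287, 189, 245 and 269 CPM and the other 7 markers 86.4, 93.4, 47.1 and 34.2 CPM. The 6 immune markers in the tables summed to 21.7 to 27.4 CPM, 3 adipocyte markers to 15.5, 17.9, 6.43 and 5.76 CPM, and red blood cell markers to under 1 CPM with Hbb-b1 and Hba-a1 at 0 in every library. The part of these shifts in the higher Egr2, Egr3 and Ier3 was not tested.

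**Figure D5:**
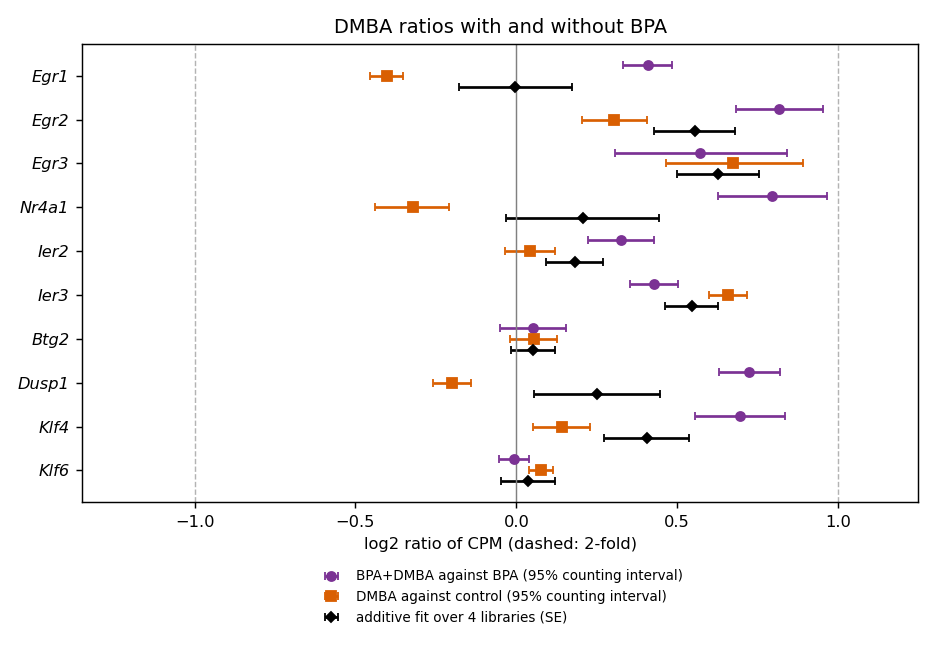
Log2 ratio of CPM of each member for BPA+DMBA against BPA (circles) and DMBA against control (squares) with 95% counting intervals, and the additive DMBA estimate with its SE (diamonds); dashed lines mark 2-fold. Egr2, Egr3 and Ier3 lie right of 0 in both pairs, and Egr1, Nr4a1 and Dusp1 lie on opposite sides.

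BPA+DMBA was also set against control, which shares its libraries with the comparisons above. Egr3 was 1.61-fold higher in BPA+DMBA (log2 0.69, 0.45 to 0.94), Ier3 1.504-fold (0.59, 0.52 to 0.66) and Egr2 1.41-fold (0.50, 0.38 to 0.61). Egr1 was at -0.45 (-0.51 to -0.39), Dusp1 at -0.31 (-0.38 to -0.24) and Btg2 at -0.24 (-0.33 to -0.15). None of the 10 was 2-fold apart, against 4.38% of kept genes, and the members' median was -0.05.

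The genes whose pattern over the 4 libraries was nearest to that of Egr1 were taken from 10240 candidates with a mean of at least 5 CPM. They were Lama1, Hecw2, Tmem45a, Tlcd1 and Slco5a1, at Euclidean distances of 0.22 to 0.27 between centred log2 CPM. Nearest to the median pattern of the members were Gtf2h4, Cntln, Sesn1 and Wdr67, at 0.04 to 0.07. The members' median pattern stood at 0.10 in BPA+DMBA, 0.18 in DMBA, -0.34 in BPA and 0.07 in control. Over 4 libraries such nearness is only a description.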

How the data were processed

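RNA-seq libraries were made with the TruSeq protocol, and each library has 1 deposited table of raw counts by gene symbol. CASAVA 1.8.2, HTSeq, DESeq and build mm9 are named in the submitters' processing notes; which aligner was run, and whether counting used strand, is not given in the sources used here. Summary entries that name no gene were left out of library sizes: reads in no feature came to 11.3% to 13.5% of each table's total and reads without a unique alignment to 22.9% to 25.6%, so genes with close copies may be undercounted.

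The filter on low values kept any gene that reached 20 counts in 1 library or more. CPM used TMM factors (0.969 to 1.05), and log2 ratios a prior count of 2. Ratios between 2 libraries carry exact Clopper-Pearson 95% intervals, which cover counting error only; reads had no molecular identifiers. A ratio was called at 2-fold with an interval excluding equality. The additive fit of BPA and DMBA over 4 libraries used edgeR 4.0.16 (quasi-likelihood test, Benjamini-Hochberg adjustment over all kept genes) in R 4.3.3, with DESeq2 1.42.0 as an alternative. A count of 3 corresponded to 0.098 to 0.191 CPM.

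All members were named whatever their values, and up to 4 genes per list and comparison by size of ratio, beside 5 AP-1 genes. The members and lists were chosen with earlier results of these data known. Exon lengths came from GENCODE M21 (GRCm38, not the authors' build) for 13510 of 13638 kept genes, and upstream sequences from RefSeq on GRCm38.p6.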

Additional observations from a re-analysis of the deposited data

Results flagged for a closer look

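Members had opposite directions on the 2 backgrounds, each with both counting intervals excluding equality; the differences themselves were not tested, since each group is 1 library. For BPA, Nr4a1 had log2 ratios of 0.19 in BPA+DMBA against DMBA and -0.92 in BPA against control, a difference of 1.12. Egr2 had 0.19 and -0.32, a difference of 0.51. Ier3 had -0.07 and 0.16, a difference of -0.23. For DMBA, Egr1 had 0.41 in BPA+DMBA against BPA and -0.40 in DMBA against control, a difference of 0.81. Nr4a1 had 0.79 and -0.32, a difference of 1.12, and Dusp1 had 0.72 and -0.20, a difference of 0.92.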

How the results depend on the processing

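No paired analysis was possible because each group has 1 library, and no spread between animals can be measured. Of 660 member values under alternatives, 631 kept their sign and 29 changed it, over 16 results. Of the 29, 15 came with a library left out, though such values are a minority of the 660. Values under the 1.5-fold rule are among the 660 and could not change sign, since that rule alters only the calls. Of those 29, only Egr1 under DMBA passed the threshold, at 0.43 without control. Otherwise its value of -0.004 turned to 0.0001 by DESeq2, 0.0002 with 20 counts required in every library, 0.051 with the length trend removed, 0.0022 after thinning and 0.081 by total counts. Egr3 under BPA turned to -0.031 after thinning. Fits with a library left out had BPA or DMBA as the single term. The other exposure was not in the model, so these values are not the additive estimate less a library. A value under BPA can then also hold a DMBA difference, and the reverse. Leaving out each library gave ranges under BPA of -0.49 to 0.34 for Egr2 (0.13 without DMBA), -0.27 to 0.42 for Egr3, -0.27 to 0.067 for Ier2, -0.27 to 0.38 for Ier3 (-0.22 without BPA+DMBA), -0.06 to 0.0057 for Klf6 and -0.78 to 0.024 for Nr4a1, and under DMBA of -0.11 to 0.21 for Btg2 (-0.081 without BPA), -0.25 to 0.78 for Dusp1, -0.43 to 0.43 for Egr1, -0.0023 to 0.08 for Klf6 and -0.23 to 0.70 for Nr4a1. Without control, Dusp1, Nr4a1 and Klf4 (0.83) also passed for DMBA. Newly past the threshold were 18 values and no longer past it 8. Genes called for BPA numbered 0, against 1 by DESeq2, 2 with no filter on low counts and 0 to 0 leaving out each library. Genes called for DMBA numbered 1962, against 675 by DESeq2, 919 after thinning to the smallest total, 832 with the length trend removed and 969 to 2729 leaving out each library with DMBA as the single term. Members called for DMBA numbered 3, against 1 by DESeq2, 1 with the length trend removed and 3 to 6 leaving out each library. Scaling by total counts alone split the DMBA calls into 889 higher and 431 lower, against 909 and 1053, and moved the median of all genes by 0.11 in DMBA against control. Under it the ratios of Egr3 in BPA+DMBA against DMBA and Klf6 in BPA+DMBA against BPA changed sign, as did that of Ier2 in DMBA against control with the length trend removed (-0.07). At 1.5-fold in place of 2-fold, calls numbered 385 genes and 4 members in BPA against control (113 and 1 at 2-fold), 561 genes in BPA+DMBA against DMBA (148), 2063 and 2 in DMBA against control (893 and 0), 1413 and 4 in BPA+DMBA against BPA (510 and 0), 1589 and 2 in BPA+DMBA against control (598 and 0), and 1065 and 3 for departure from additivity (379 and 1). A prior count of 10 left 39 genes in BPA against control and 64 in BPA+DMBA against DMBA. The causes of these shifts were not tested.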
